A study of Branchiostoma belcheri with 3 samples.

Results

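A microarray of miRNA probes from several chordates and their relatives was hybridised with small RNA of the amphioxus Branchiostoma belcheri, an invertebrate chordate. Of its 667 miRNA families, 47 were taken as vertebrate-only by the rule given here. Their members were 85 zebrafish, 85 sea lamprey and 49 Xenopus tropicalis probes of the 1686 miRNA probes on the array, each with a target of its own. A family was defined by the number in the miRNA name. It was taken when it had probes of at least 2 of the prefixes dre (zebrafish), xtr and xbo (the frogs Xenopus tropicalis and Xenopus borealis) and pma (sea lamprey), and none of amphioxus, sea squirt, acorn worm or sea urchin origin. Families miR-25, miR-98, miR-99, miR-206, miR-429 and miR-449, which belong to families numbered otherwise elsewhere, were left out. The choice used names only and no measured value, though it was made with earlier results of these data known. It describes which probes were printed and not which miRNAs the amphioxus genome encodes.

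The samples were hepatic caecum, intestine and gill of adult B. belcheri. Per the labels, tissue of 5 adults was pooled for each organ, and RNA below 300 nt was tailed, tagged and stained with Cy3. No genetic change or treatment was given for any of them. There was 1 array per organ, so no test between organs was possible, and array and organ cannot be told apart. In RNA of whole organs, fewer cells of a type and less RNA per cell cannot be told apart either. The organ identities were taken from the labels, and no marker RNA of these organs was measured.

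MicroRNAs are short RNAs that pair with messenger RNAs, mainly through the seed at bases 2 to 8 from the 5′ end, and lower their output. The set of miRNA families grew in the ancestry of vertebrates, and many families of that layer are known for liver, blood, muscle or early embryo functions. Amphioxus branches from the chordate tree before the vertebrates, and its hepatic caecum is widely compared with the vertebrate liver. A vertebrate probe on an amphioxus sample can therefore only report an amphioxus RNA that is similar enough to hybridise.

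The probe targets the results turn on are shown with their seeds in capitals, as given in the array's own annotation. The first set holds both zebrafish members with the highest densities in gill, and the lamprey member that alone was detected in intestine.
dre-miR-430b: aAAGUGCUaucaaguugggguag
dre-miR-17a-3p: aCUGCAGUggaggcacuucuag
pma-miR-17b: uAAAGUGCagauagugguaguu

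The second set holds the liver miRNA of vertebrates and 3 pairs of the same family whose targets are 1 edit apart and of which the probe printed first was detected in gill. An edit is a base substituted, inserted or deleted.
dre-miR-122: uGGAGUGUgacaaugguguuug
xtr-miR-122: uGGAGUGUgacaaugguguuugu
xtr-miR-24b: uGGCUCAGuucagcaggacag
dre-miR-24: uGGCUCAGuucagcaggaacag
dre-miR-430a: uAAGUGCUauuuguugggguag
dre-miR-430i: uAAGUGCUauuuguuggcguag
dre-miR-138: aGCUGGUGuugugaaucaggcc
pma-miR-138a: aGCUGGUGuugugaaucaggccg

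The third set holds members that share their seed with a bright probe of the amphioxus Branchiostoma floridae (bfl), which is printed after each of them.
dre-miR-363: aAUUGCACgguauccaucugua
bfl-miR-92a: uAUUGCACuugucccggccuuu
dre-miR-16a: uAGCAGCAcguaaauauuggug
bfl-miR-2067: aAGCAGCAguaugcaauggug
dre-miR-103: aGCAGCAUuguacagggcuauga
bfl-miR-2013: aGCAGCAUagugcaaugguguca

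Nearly all probes of vertebrate-only families stayed at the level of empty spots. Each array had 304 spots without a probe, and a probe was called detected when the mean density of its 2 spots exceeded the mean of these blanks by 3 SDs. Density is the scanner's median brightness of a spot on a linear scale, and empty spots keep values above 0 in it. The thresholds were 618 for hepatic caecum, 220.1 for intestine and 139 for gill. Hepatic caecum values are given with the deposited grid turned by 180 degrees, since its 596 control spots follow the other arrays in that placement. Their log2 densities correlated with those in gill at r = 0.97 when turned and 0.27 as deposited, and with those in intestine at 0.98 and 0.25, across spots.

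Of the members, 0 were detected in hepatic caecum, 1 (0.457%) in intestine and 13 (5.94%) in gill. Over all 1686 miRNA probes the shares were 7.18%, 11.9% and 27% on the same arrays. By family, 0 of 47 had a detected probe in hepatic caecum, 1 in intestine and 11 in gill, and 36 families had none on any array. The median density of the members was 162 in hepatic caecum, 99.01 in intestine and 114 in gill, against medians of the blank spots of 156, 112 and 107.3. The median member thus lay slightly above an empty spot in hepatic caecum and gill, and below it in intestine. The same held for the median over all 1686 probes, at 165 in hepatic caecum, 102 in intestine and 116 in gill. This position is therefore not particular to the members.

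Single spots gave the same picture against the blanks. In gill, 24 of 438 member spots (5.48%) exceeded the threshold, against 1 of 304 blank spots (0.329%). In intestine, 4 of 438 member spots (0.913%) did, against 5 of 304 blank spots (1.64%). In hepatic caecum 2 of 438 (0.457%) did, against 8 of 304 blank spots (2.63%). At these thresholds, member spots were over more often than blanks in gill alone among the 3 arrays, by counts that were not tested. The thresholds of the other arrays were raised by a few bright blanks, the brightest at 477 in intestine and 1549 in hepatic caecum. At the lower median-based threshold given below, 5.02% of members passed in intestine by their mean, against 2.63% of blank spots. In hepatic caecum it was 5.02% against 6.58%, and in gill 6.85% against 0.329%. These shares set means of 2 spots against single blank spots, so they are not like for like.

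**Figure D1:**
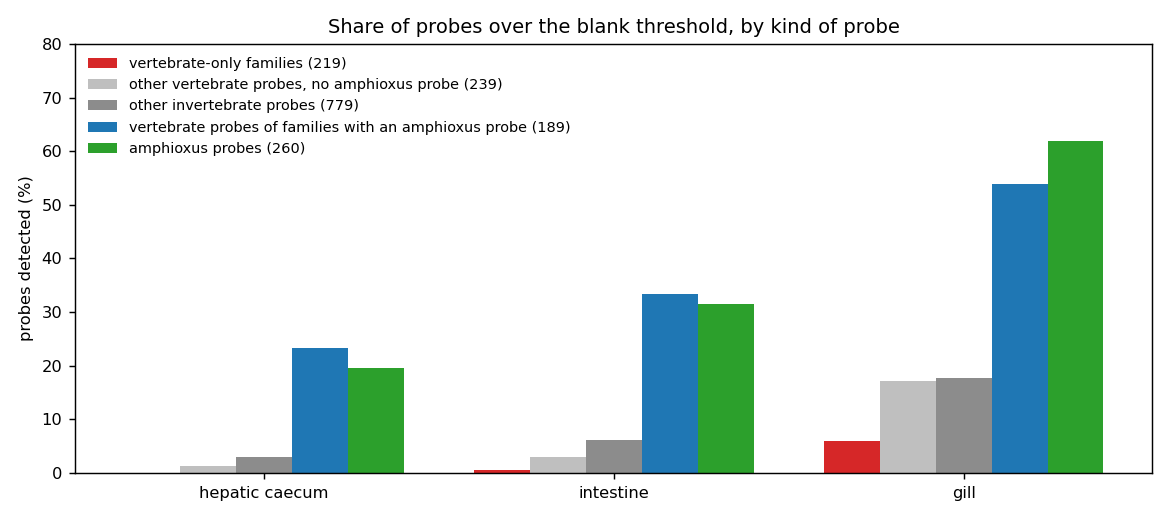
Percentage of probes detected on each array (vertical axis, from 0) for 5 kinds of probe, with the number of probes in the legend; each array is 1 pooled sample, so there are no error bars. The vertebrate-only families have the shortest bar on every array, at 0, 0.457% and 5.94%, while vertebrate probes of families that also have an amphioxus probe reach 23.3%, 33.3% and 54.0%.

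Probes of the same vertebrates did detect RNA when their family also had an amphioxus probe on the array. Of 189 such probes, 44 (23.3%) were detected in hepatic caecum, 63 (33.3%) in intestine and 102 (54.0%) in gill. In gill, zebrafish probes were detected for 6 of 85 members (7.06%), against 46 of 73 probes (63.0%) of families shared with amphioxus. For lamprey the counts were 5 of 85 members (5.88%), against 27 of 67 (40.3%). For Xenopus tropicalis they were 2 of 49 members (4.08%), against 24 of 44 (54.5%). The gap was thus present in each of the 3 species, and no member carried a Xenopus borealis sequence. The remaining 239 vertebrate probes, of families with no amphioxus probe that failed the rule in another way, were detected 3 times (1.26%) in hepatic caecum, 7 times (2.93%) in intestine and 41 times (17.2%) in gill.

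The brightest member was dre-miR-430b, of the family that clears maternal messenger RNAs in the early zebrafish embryo. Its density was 198.9 ± 4.9 in hepatic caecum, 168 ± 38.4 in intestine and 431 ± 28.04 in gill (SD of 2 spots on 1 array, as in all densities below). It exceeded the threshold in gill and not on the other arrays. It ranked 239 of 1686 in gill, and no member exceeded a density of 500 on any array.

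The next was dre-miR-17a-3p, from the arm opposite the guide strand of the miR-17 cluster, a cluster known for promoting proliferation. It had 171 ± 6.6 in hepatic caecum, 100.9 ± 7.5 in intestine and 294 ± 4.1 in gill. Its 2 gill spots were at 297 and 291, both far above the gill threshold. These were the only 2 of the 13 that exceeded the intestine threshold by their gill density, and 0 of the 13 exceeded the one for hepatic caecum. Gill densities of the size found here would mostly not have been called on the other arrays.

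The other 11 lay within 1.5 times the gill threshold. In gill, pma-miR-204-3p had 193 ± 12.6, dre-miR-140-3p, of a family known from vertebrate cartilage, had 187 ± 16.2, and xtr-miR-24b had 174 ± 13.4. In the same order, these 3 had 175 ± 14.1, 167 ± 4.1 and 188 ± 20.4 in hepatic caecum and 116 ± 4.6, 103.2 ± 10.97 and 105 ± 10.2 in intestine. All 6 of these values were under their thresholds. The probe xtr-miR-2184 passed in gill at 193 ± 106.7 by 1 spot alone, with its spots at 117 and 268.

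Then followed, in gill, pma-miR-26a-2-3p at 154.8 ± 24.9, pma-miR-17b, with spots at 147.5 and 152.5, and pma-miR-208-3p, of a family of heart muscle, at 146.1 ± 10.9. The last were pma-miR-30f at 144.7 ± 7.4, dre-miR-430a at 144.2 ± 0.2, dre-miR-212 at 141 ± 12.3 and dre-miR-138 at 140.5 ± 0.6. Apart from pma-miR-17b, these 6 and xtr-miR-2184 had 149.6 to 179 in hepatic caecum and 81.2 to 104 in intestine, all undetected. Both spots were over the threshold for 9 of the 13, and 1 spot for the other 4. Just below the gill threshold were dre-miR-24 at 137.9 ± 1.5, dre-miR-122 at 137.7 ± 18.3 and xtr-miR-93b at 135 ± 3.9, so that the call falls within a narrow range of densities.

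**Figure D2:**
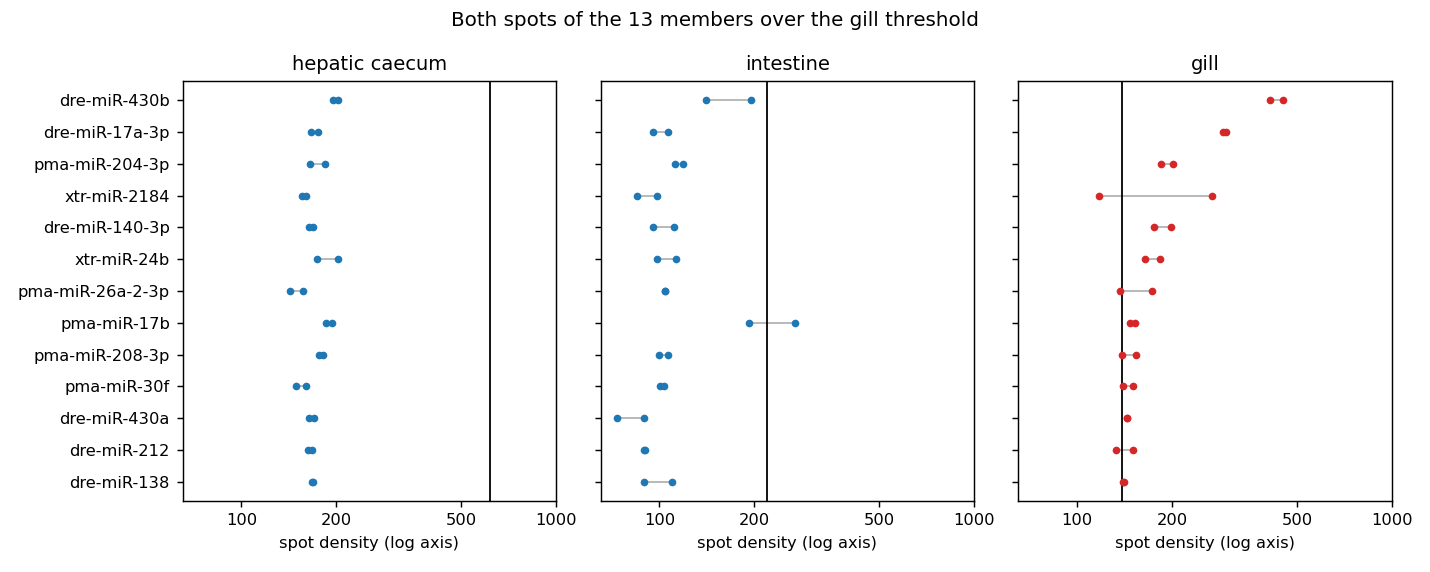
Density of both spots (points joined by a line, log axis) on each array for the 13 members detected in gill, ordered by gill density, with the array's threshold as a vertical line. In gill dre-miR-430b (450.6 and 411) and dre-miR-17a-3p (297 and 291) stand apart, most others lie close to the line, and the spots of xtr-miR-2184 disagree; in intestine pma-miR-17b straddles the line, and in hepatic caecum all points lie left of it.

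In intestine the only detected member was pma-miR-17b, a lamprey sequence of the miR-17 family, at 232 ± 54.2. Its 2 spots were at 193 and 269.9, so that 1 of them was below the threshold of 220.1. It was at 190.0 ± 5.2 in hepatic caecum, where it was not detected. Just below the intestine threshold were dre-miR-30c at 218.2 ± 174, dre-miR-16a at 198 ± 144.9 and pma-miR-18b-5p at 184 ± 112. Each of these means rested on 1 bright spot, at 341, 300.4 and 263, beside a second spot at 95.4, 95.5 and 104.

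Between organs, pma-miR-17b was the single member detected in both tissues of any pair. After background correction and normalization between arrays its level in intestine exceeded that in gill by a log2 difference of 1.76. The difference was 1.37 from the first spots alone and 2.10 from the second. The error of the repeat spots, 0.34, was taken from log2 densities without correction or normalization, so it is not on the scale of that difference. Over all 197 probes detected in both organs, 39.6% were at least 2-fold higher in intestine and 21.8% lower. Without normalization between arrays the difference was 0.81, below the 2-fold limit. For hepatic caecum against gill and hepatic caecum against intestine 0 members were detected in both organs, so no difference was called. The shares over all probes detected in both were 41.0% higher and 9.4% lower for the first pair, and 24.1% higher and 12.1% lower for the second.

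Without the detection filter, 5 members were at least 2-fold higher and 1 lower in intestine than in gill, against 6.52% and 6.05% of all probes. For hepatic caecum against gill the counts were 9 higher and 0 lower, against 6.76% and 5.1%. For hepatic caecum against intestine they were 10 higher and 7 lower, against 5.81% and 5.99%. Apart from pma-miR-17b, each of these members was undetected in at least 1 organ of its pair.

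No fold bound could be given for the members detected in gill alone. The normalized gill levels of the 12 undetected in intestine, and of the 13 undetected in hepatic caecum, gave a ratio below 1 to the lowest level that counts as measured on the other array. Whether these members were lower there was not detectable at this background.

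Lists of families grouped by what they are known for in vertebrates held 193 of the members, in 38 families and 12 lists. In gill, 7 lists had a detected probe and 5 had none. There 11 of the 193 listed probes were detected, beside 5.94% of all members and 27% of all 1686 probes. At the members' share a short list will often hold 0 detected probes. The counts below are therefore descriptions and not results about the function of a list. The 26 members in no list included 2 detected in gill, pma-miR-204-3p and xtr-miR-2184.

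The liver and gut epithelium list held 10 probes of miR-122, miR-192 and miR-194, and 0 were detected on any array. The highest on all 3 arrays was dre-miR-122, whose family is the most abundant miRNA of the vertebrate liver, at 173 ± 8.6 in hepatic caecum, 111 ± 9.7 in intestine and 137.7 ± 18.3 in gill. Its frog counterpart xtr-miR-122 had 169 ± 8.4, 108 ± 0.6 and 124 ± 7.3 on the same arrays. In hepatic caecum both lay between the blank median of 156 and the threshold of 618, so a miR-122 signal was not detectable there at this background. The miR-192 probes ran from 161 to 171 and the miR-194 probes from 149 to 166 on that array.

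Among 18 probes of the blood and immune list, which covers miR-142, miR-144, miR-146, miR-150 and miR-451, 0 were detected on any array. Its highest probes were xtr-miR-150 in hepatic caecum at 180.7 ± 25.5, pma-miR-146-5p in intestine at 158 ± 79.0 and dre-miR-142b-5p in gill at 134 ± 4.1. The red-cell miRNA dre-miR-451 had 167 ± 11.3, 84.7 ± 4.9 and 112 ± 9.7 in hepatic caecum, intestine and gill. All of these were under the thresholds of their arrays.

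The muscle lists gave 1 detection. Of 5 probes of miR-208 and miR-499, which are encoded in myosin genes of vertebrates, pma-miR-208-3p was detected in gill. On the hepatic caecum array the highest of them was dre-miR-499 at 303 ± 215.1, from spots at 455.1 and 151. Of 14 probes of smooth muscle and vessel families (miR-143, miR-145, miR-221 and miR-222), 0 were detected, and the highest were dre-miR-222a in hepatic caecum at 396 ± 321, xtr-miR-143 in intestine at 121 ± 19.1 and dre-miR-221 in gill at 129 ± 7.2.

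Of 32 probes of the proliferation clusters (miR-17, miR-18, miR-20, miR-93 and miR-363), 0 were detected in hepatic caecum, 1 in intestine and 2 in gill, all of the miR-17 family. On the hepatic caecum array their highest probe was xtr-miR-17-5p at 262 ± 142.5. The miR-23, miR-24 and miR-27 list had 1 of 20 detected, xtr-miR-24b in gill, and its highest intestine probe was pma-miR-23a-3p at 149.9 ± 3.1. None of 7 miR-16 probes was detected on any array, and the highest in gill was dre-miR-16c at 122.05 ± 3.9.

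Among 14 probes of the neural list (miR-128, miR-138, miR-212 and miR-218), 2 were detected in gill, namely dre-miR-212 and dre-miR-138, the members closest above the threshold. The highest elsewhere were dre-miR-128 in hepatic caecum at 364 ± 281 and dre-miR-218a in intestine at 107.5 ± 3.5. The skin list (miR-203 and miR-205, known for epidermis) had 0 of 11 detected on any array. Its median in gill was 126.5, against 114 over all members, and its highest probes were dre-miR-203b-3p in hepatic caecum at 174 ± 16.3, pma-miR-205a-5p in intestine at 178 ± 2.9 and dre-miR-203a in gill at 133 ± 8.8.

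Of 3 probes of the cartilage miRNA miR-140, dre-miR-140-3p was detected in gill, and it was the highest of the 3 on each array. The early embryo list (miR-302 and miR-430) had 2 of 12 detected in gill, both zebrafish miR-430 probes. The highest in hepatic caecum was pma-miR-430a at 275 ± 169.6. Of 47 probes of widely expressed families (miR-26, miR-30, miR-103, miR-130, miR-148 and miR-301), 2 were detected in gill, pma-miR-26a-2-3p and pma-miR-30f, and 0 on the other arrays. The highest in hepatic caecum, dre-miR-30b at 395 ± 304, again rested on 1 of its 2 spots.

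**Figure D3:**
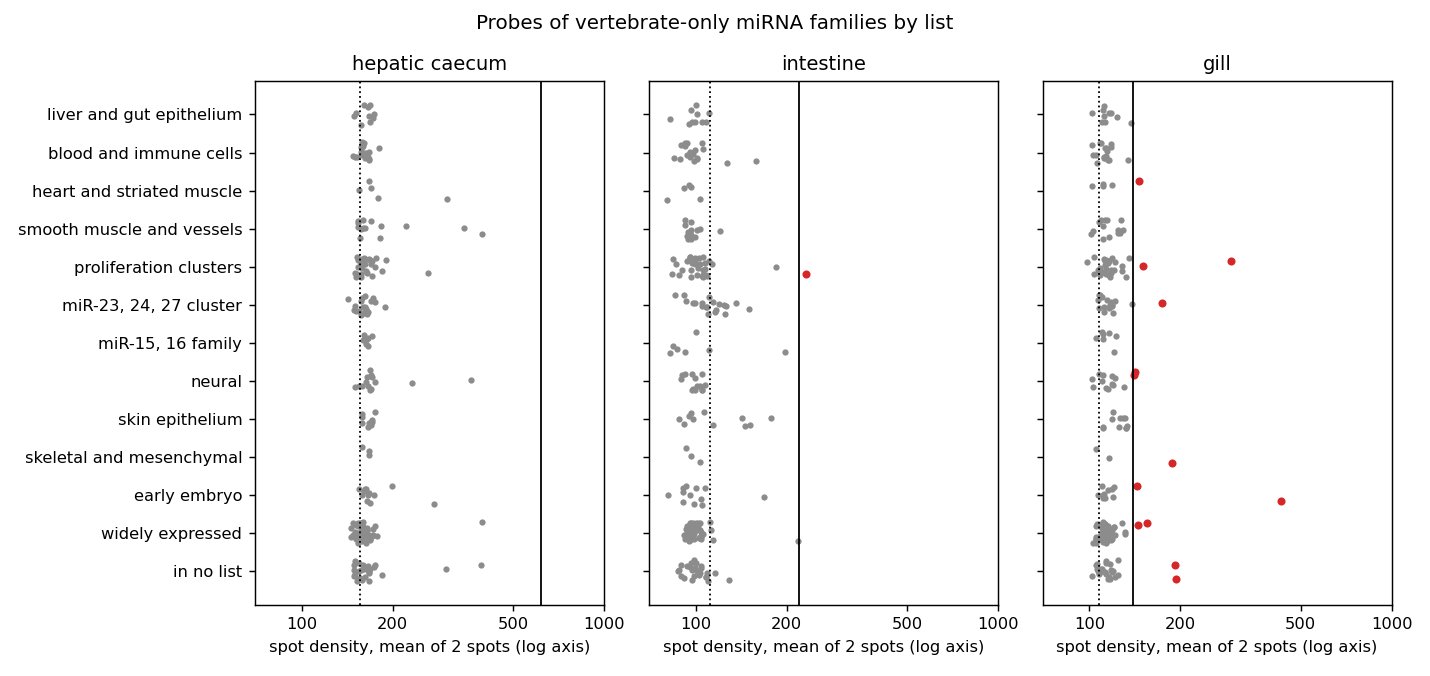
Mean density of the 2 spots (horizontal log axis) of each member on each array, in rows by list, with the blank median dotted, the threshold as a solid line and detected probes in red. Most points lie close to the blank median in hepatic caecum and gill and below it in intestine, with 13 red points in gill, 1 in intestine and 0 in hepatic caecum.

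At the 99th percentile of the blank spots, 0 members passed in hepatic caecum, 0 in intestine and 27 in gill, against 6.05%, 9.96% and 32.7% of all probes. The blank spots of the hepatic caecum and intestine arrays included a few bright ones, the brightest at 1549 and 477. A threshold from the blank median plus 3 scaled median absolute deviations was lower, at 201 in hepatic caecum, 139 in intestine and 136 in gill. It was passed by 11 members in hepatic caecum (5.02%), 11 in intestine (5.02%) and 15 in gill (6.85%), against 19%, 19% and 28.2% of all probes and 6.58%, 2.63% and 0.329% of the blank spots. The blanks are single spots, whereas members and probes are means of 2 spots.

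In hepatic caecum 0 of these 11 had both spots over it. Each had 1 bright spot, as with dre-miR-222a at 623 and 169, dre-miR-30b at 609.6 and 180.02 and xtr-miR-187 at 154 and 626. In intestine 5 of 11 had both spots over it, namely pma-miR-17b, pma-miR-205a-5p (176 and 179.99), dre-miR-430b (141 and 196), pma-miR-205b (149.7 and 153) and pma-miR-23a-3p (152 and 147.8). In gill 12 of 15 did. Over all probes that passed, both spots did for 243 of 320 in hepatic caecum, 279 of 321 in intestine and 435 of 476 in gill. Both spots passed on 2 arrays for 2 members, dre-miR-430b and pma-miR-17b, each in intestine and gill, and on 3 arrays for 0.

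The 2 spots of a probe correlated less among the members, most of whose densities lay in a narrow range near the blanks. The log2 densities of the 2 spots correlated across all members with r = 0.01 in hepatic caecum, 0.46 in intestine and 0.83 in gill, against 0.96, 0.98 and 0.996 over the 189 vertebrate probes of families shared with amphioxus. By rank, Spearman's rho was 0.34, 0.46 and 0.61 for the members and 0.82, 0.91 and 0.95 for the shared families. A narrow range of densities lowers a correlation, so these values do not show whether the spots of members agreed less well. Between arrays the members' log2 densities correlated with r = 0.25 for intestine and gill, 0.08 for hepatic caecum and gill and -0.06 for hepatic caecum and intestine. These are correlations across probes, which share an array and often a family, and are given as descriptions.

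Likeness to the amphioxus targets is given as a description. Families are named by sequence likeness, and the rule left out every family with an amphioxus or other invertebrate probe, so larger distances of the members follow in part from their choice. The smallest number of edits from a member's target to any amphioxus target on the array ran from 6 to 11, with a median of 9. For vertebrate probes of families shared with amphioxus it ran from 1 to 10, with a median of 5. Within 1 or 2 edits of an amphioxus target, where no member lay, 24 of 44 such probes were detected in hepatic caecum, 31 in intestine and 40 in gill. At 8 edits 2 of 75 members (2.67%) were detected in gill, against 9 of 23 of these probes (39.1%). At 9 or more edits it was 9 of 111 members (8.11%), against 21 of 35. Detection thus did not fall steadily with distance to the targets printed under an amphioxus name. All 1686 probes had different targets, so a sequence shared between species stands under 1 prefix only. A large distance here therefore does not mean that amphioxus lacks a similar miRNA.

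The same count was made against the targets of all invertebrates on the array. Members lay 4 to 9 edits from the nearest, with a median of 8. The 5 members at 4 or 5 edits, of miR-27, miR-218 and miR-459, had gill densities from 102.5 to 121.9, and 0 were detected. At 6 or 7 edits 5 of 104 members (4.81%) were detected in gill, against 19 of the other vertebrate probes (18.4%). At 8 edits it was 4 of 92 (4.35%), against 14 of 104 (13.5%). At 9 or more edits it was 4 of 18 (22.2%), against 6 of 44 (13.6%), a bin of few members. Closer than that, at 1 or 2 edits, 74 of 94 other vertebrate probes (78.7%) were detected, and at 3 to 5 edits 30 of 83 (36.1%). Among these, the probes of families shared with amphioxus were detected in gill for 79.8% at 1 or 2 edits. Their shares were 41.4% at 3 to 5 edits and 24.1% at 6 or 7. At 8 edits 0 of 11 were detected, and at 9 or more 0 of 2.

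**Figure D4:**
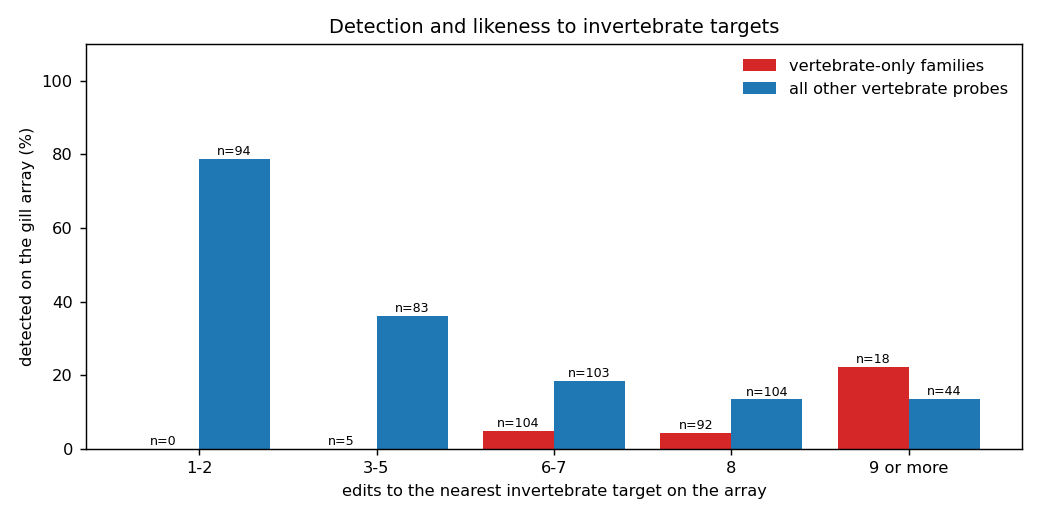
Percentage of probes detected in gill (vertical axis, from 0) by the number of edits between their target and the nearest invertebrate target on the array, for vertebrate-only families (red) and all other vertebrate probes (blue), with the number of probes over each bar. The blue bars fall from 78.7% at 1 or 2 edits to 13.6% at 9 or more, while no member lies below 4 edits and the last red bar holds 18 probes.

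The members that share a seed with an amphioxus target were all undetected. The seed of 12 members, from 5 families, also occurred at bases 2 to 8 of an amphioxus target, and 0 of the 12 were detected on any array. Over all members only 5.94% were detected in gill and 0.457% in intestine, so 0 of 12 lies near those shares. The member pma-miR-26a-1-3p shares its seed only with bfl-miR-4898, itself undetected on each array, at 125.5 ± 0.3 in gill. The probes dre-miR-363 and xtr-miR-363-3p share the seed of miR-92. Their gill densities were 107.04 ± 2.0 and 98.5 ± 5.5, below the blank median of 107.3, whereas bfl-miR-92a had 43290 ± 5890 in gill. Their targets were 9 or 10 edits from that of bfl-miR-92a.

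The 6 miR-16 probes with the seed of bfl-miR-2067 ran from 105 to 122.05 in gill, while bfl-miR-2067 had 22661 ± 250, at 6 to 8 edits. In hepatic caecum the same probe had 8582 ± 344 and in intestine 6190 ± 105, where dre-miR-16a had 165 ± 7.3 and 198 ± 144.9. For dre-miR-103 and pma-miR-103a, gill densities were 114 ± 2.2 and 127.97 ± 4.5, whereas bfl-miR-2013 of the same seed had 2190 ± 253, at 7 or 8 edits. These probes thus stayed undetected beside a bright amphioxus probe of the same seed, and the part of the seed was not tested.

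Near-identical members did not always give the same call in gill. Of the 13 detected members, 12 had as their nearest relative in the family a probe that was not detected. Only 4 of these relatives were at 1 edit. The others were at 2 to 16 edits, with dre-miR-140-5p at 13 and dre-miR-204 at 16, so the 12 were not all near-identical pairs. Only 5.94% of all members were detected in gill, so 12 of 13 undetected relatives lies near what that share would give. The pairs below start from members over the threshold, so a lower partner follows in part from that choice. The probe xtr-miR-24b had 174 ± 13.4 beside 137.9 ± 1.5 for dre-miR-24, which was 1 edit away and just below the threshold. The probe dre-miR-430a had 144.2 ± 0.2 beside 111 ± 3.1 for dre-miR-430i. In the third pair dre-miR-138 had 140.5 ± 0.6 beside 110.3 ± 2.1 for pma-miR-138a, whose target is longer by a base. Each of these gaps was larger than the SDs of the spots, which are technical and come from 1 array.

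The miR-430 probes showed the widest range within a family in gill, with 10 probes between 109.9 and 431. Besides dre-miR-430b and dre-miR-430a the zebrafish probes dre-miR-430c and dre-miR-430i had 115 ± 1.2 and 111 ± 3.1. The miR-17 family ran from 103.5 to 294 over 8 probes, and its probe pma-miR-17a-3p, at 4 edits from dre-miR-17a-3p, had 103.5 ± 3.0. The 19 miR-30 probes, the largest family among the members, ran from 105 to 144.7. Outside the vertebrate-only families, the probe with the target nearest to each detected member was itself detected in gill for 1 of the 13. It was cin-miR-4186-5p, at 7 edits from pma-miR-208-3p and with a gill density of 167. Of all 1467 probes outside these families, 442 (30.1%) were detected in gill.

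Base composition moved weakly to moderately with density in gill and intestine. Across all members the G and C percentage of the target correlated with log2 density at r = 0.24 in gill, 0.17 in intestine and 0.01 in hepatic caecum, as a description over probes of 1 array each. By rank, Spearman's rho was 0.28 in gill, 0.33 in intestine and 0.03 in hepatic caecum. The median G and C percentage was 47.8% for the 13 members detected in gill and 44.5% for the others. A run of GGGG, a motif chosen after the values had been seen and searched on the target strand only, occurred in 9 members (4.11%) and in 53 of all 1686 targets (3.14%). Of these 9, 3 were detected in gill, and of the 210 without it, 10. Over all probes 17 of 53 with it were detected in gill, and 438 of 1633 without it. The part of base composition in the detections was not tested.

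The names deposited with the hepatic caecum array gave other values for the same families. Under them 17 members (7.76%) exceeded a density of 500, close to the 8.3% of all probes, whereas in the turned grid 0 members did, as on the gill and intestine arrays. The highest under the deposited names was pma-miR-430d, a lamprey relative of the embryonic miR-430 family, at 27095 ± 1264. The same probe had 168 ± 2.7 in the turned grid, 90.8 in intestine and 111 in gill.

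In the turned grid its bright spots carry the name bfl-miR-100-5p, a probe with 48359 ± 1597 in intestine and 50831 ± 1887 in gill. The next members under the deposited names were pma-miR-301b at 6710 ± 2292, xtr-miR-23a at 5453 ± 2317, pma-miR-144-5p at 3647 ± 4028 and xtr-miR-499 at 2374 ± 560. All 4 were between 158 and 169.7 in the turned grid. Their spots carry the names sko-miR-29a, bfl-miR-4870, xtr-miR-200b and pma-miR-200b-3p there. In that order these had 7701 ± 2309, 437 ± 300, 2389 ± 165 and 917 ± 402 in intestine. In gill they had 23369 ± 5046, 159 ± 33.1, 15579 ± 58.7 and 9876 ± 612. Not every counterpart was thus bright on the other arrays. The spots of dre-miR-18a, at 527 ± 530 under the deposited names, carry sko-miR-4822-5p, with 100.8 ± 1.9 in intestine and 96.7 ± 4.8 in gill.

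The authors' deposited series table follows the deposited names. Over the members its hepatic caecum column correlated with the density under those names with a Spearman's rho of 0.91, and with the turned density with 0.10, across probes. It lists pma-miR-430d at 50132 in hepatic caecum, 0.32 in intestine and 2.23 in gill, and 19 members with a value over 500 in hepatic caecum, against 0 in intestine and 0 in gill. The highest table value of any member was 310.2 in intestine and 157 in gill.

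**Figure D5:**
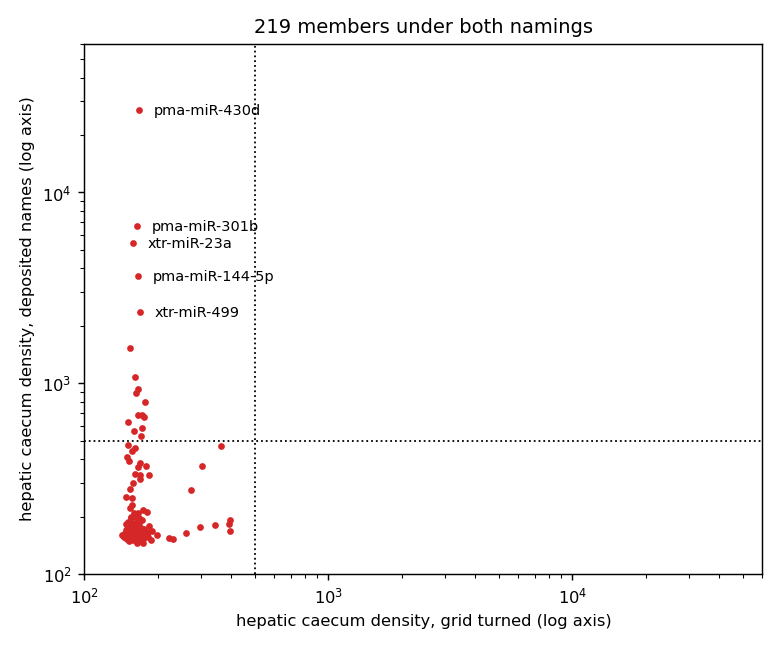
Hepatic caecum density of each member with the grid turned (horizontal) and under the deposited names (vertical), both on log axes, with dotted lines at 500. All points lie left of the vertical line, and 17 lie above the horizontal one, the highest being pma-miR-430d at 168 and 27095.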

How the data were processed

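The data are 3 scanner files, 1 per organ, of Cy3 arrays with 2 spots per miRNA probe. Per the file headers, the deposited values are the median density of each spot, an intensity on a linear scale. The deposited series table holds intensity values processed by the authors, with background correction and scaling not given in the sources used here.

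Hepatic caecum densities were read in reversed row order (grid turned by 180 degrees). Detection used the blank mean plus 3 SDs. Levels between arrays were compared after normexp correction (offset 50), log2, averaging of spots and quantile normalization in limma 3.58.1 (R 4.3.3), tested on simulated data, with a 2-fold limit and no test. Edits were counted with edlib in Python 3.11.15, with pandas 2.3.3 for tables and matplotlib 3.10.9 for plots. Control spots entered the normexp fit and not the quantile step. The number of arrays limits the precision.

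Members, lists and rules were chosen with earlier results of these data known. Named were the 10 brightest detected members per array, members called between organs, the highest member of each list per array, and the 3 members on either side of each threshold. Others were named after their values were seen.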

Additional observations from a re-analysis of the deposited data

How the results depend on the processing

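The counts of detected members moved with the threshold. With the blank median plus 3 scaled median absolute deviations they were 11 probes of 10 families in hepatic caecum and 11 of 9 in intestine, and with the 99th percentile of the blanks 0 in intestine and 27 of 17 families in gill. With both spots required they were 0 in intestine and 7 families in gill, and with a fixed density over 500 they were 0 in intestine and 0 in gill. Under the deposited names 1 member of 1 family passed in hepatic caecum. There the threshold was 22217, since the blank spots reached 55103 under those names, and 17 members exceeded a density of 500. The other settings gave counts within 1.5 times the main ones. In intestine against gill, 0 members were called higher without normalization between arrays, and 5 higher and 1 lower when undetected members were kept. With that filter dropped, hepatic caecum had 9 members higher against gill, and 10 higher and 7 lower against intestine. The causes were not tested. For pma-miR-17b the intestine minus gill difference stayed positive under the 10 alternatives, from 0.81 without normalization to 3.24 with centring on probes detected on all arrays. Leaving out a replicate was not possible, and no paired analysis was possible because each organ had 1 array.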
